A study of Mus musculus with 36 samples.

Results

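The genes described here are 10 genes of MHC class I antigen presentation, chosen by name as rows of an expression table of 52505 mouse genes. They are the light chain gene B2m, the classical heavy chain genes H2-K1 and H2-D1, the peptide transport and loading genes Tap1, Tap2 and Tapbp, the immunoproteasome genes Psmb8, Psmb9 and Psmb10, and the regulator gene Nlrc5. They were measured by RNA-seq in 3T3-L1, a mouse preadipocyte line that becomes fat cells under the adipogenic cocktail MDI. The study compared cells of wild-type genotype (WT) with cells labelled zfp217-/- (KO) at day 0 and day 2, to ask how Zfp217, a zinc finger protein gene, bears on fat cell formation. The 4 groups of 3 libraries are WT day 0, WT day 2, KO day 0 and KO day 2. Every group carries the same cell line, and the cocktail listed for the samples holds DEX (dexamethasone), isobutyl-methylxanthine, insulin and indometacin. No label says whether the KO cells are 1 clone, or whether replicates are separate cultures, so a p-value here measures only the spread between these libraries, which may be technical.

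Nearly all nucleated cells can carry MHC class I on its surface. A heavy chain, encoded by H2-K1 or H2-D1, pairs with beta-2 microglobulin and holds a short peptide for inspection by CD8 T cells. The peptides are cut by the proteasome, carried into the endoplasmic reticulum by the Tap1 and Tap2 transporter and fitted to the heavy chain with the help of tapasin, the product of Tapbp. Interferons raise the whole pathway, in part by replacing the constitutive proteasome subunits with those from Psmb8, Psmb9 and Psmb10, and Nlrc5 acts as a coactivator at class I promoters. In fibroblasts the pathway is active at a basal level.

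Total recovered reads per library ran from 18073258 to 23114994. The targeted gene does not support its label at the level of message: Zfp217 stood at 21.7 to 22.3 FPKM in WT day 0, 25.2 to 26.9 in KO day 0, 14.6 to 15.3 in WT day 2 and 21.7 to 23.4 in KO day 2, so it was higher in the libraries labelled KO at both days. Every direction below is therefore one between libraries as labelled, and a gene-level value cannot show a small deletion or frameshift. The library WT day 0 replicate 3 differed most from its partners, with 23 genes at least 4-fold from both, where the remaining 11 libraries had 1 to 5 such genes each. The gene mt-Rnr1, a ribosomal RNA of mitochondria, read 264 FPKM there, 7.01 and 5.87 in its partners and 380 to 396 in KO day 0. Without that library the 8 testable genes kept their calls in KO against WT at day 0, from 0.23 for Psmb10 to 2.55 for H2-K1 on the log2 scale. The part of mt-Rnr1 in the results was not tested.

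The 5′ flanks of B2m, H2-K1 and H2-D1 are shown because these 3 genes carried the highest fold differences among the well-expressed members and share a pair of short motifs. RefSeq windows of 300 bases (GRCm38.p6, the same assembly as mm10; 250 bases before and 50 from each start) were found for 8 of the 10 genes. Tap2 and Nlrc5 had no window. In capitals are TGACG, the core of the cyclic AMP response element that class I promoters carry as the X2 box, and ATTGG, the reverse complement of the Y box CCAAT. The gap of 20 bases between them was read off these sequences and then searched for elsewhere.
B2m pair, chr2:122147609-122147638, plus strand: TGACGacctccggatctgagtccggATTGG
H2-K1 pair, chr17:34000359-34000388, minus strand: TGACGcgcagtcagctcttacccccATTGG
H2-D1 pair, chr17:35262993-35263022, plus strand: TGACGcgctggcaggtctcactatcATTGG
H2-M3 pair, chr17:37270188-37270217, plus strand: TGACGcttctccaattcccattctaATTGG
The capitals match in all 4 lines by the choice of lines, since H2-M3 was found by that search, while the letters between them differ. Over the 20 gap bases H2-K1 and H2-D1 were identical at 13, H2-K1 and B2m at 3, and H2-D1 and B2m at 2. The first base of the pair lies at -78 from the B2m start, -101 from the H2-D1 start and -41 or -55 from the 2 annotated H2-K1 starts, with the start base as 0.

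The pair, searched on both strands, occurred in 31 of 32817 windows (0.0945%), belonging to 27 genes. Its parts are common: TGACG was in 20.8% of windows and CCAAT in 37.4%. H2-M3, a nonclassical class I gene, holds the pair too, but it was at 10.1 ± 1.07 FPKM in WT day 0 and 9.32 ± 0.14 in KO day 0 and did not pass the test there. At day 2 it passed as lower in KO (log2 change -0.29 by limma, adjusted p = 0.0488). Longer stretches of B2m and H2-D1 also show, in capitals, a match to AANNGAAA, a core that interferon regulatory factors bind, read forward in B2m and on the reverse strand in H2-D1.
B2m, chr2:122147550-122147638, plus strand: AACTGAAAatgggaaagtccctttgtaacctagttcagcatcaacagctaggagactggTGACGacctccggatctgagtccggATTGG
H2-D1, chr17:35262944-35263022, plus strand: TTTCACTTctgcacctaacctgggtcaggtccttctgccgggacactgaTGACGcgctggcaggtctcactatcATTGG
H2-K1 holds the same 3 motifs in the same order. Where the upstream bases of H2-K1 and H2-D1 align, 166 of 190 were identical (87.4%). AANNGAAA was in 23.9% of all windows. These are matches of letters and not measured sites.

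Tap1 and Psmb9 are transcribed away from each other from a shared stretch of 225 bases. It is shown because the genes on its sides differed in level and, at day 0, in the comparison of genotypes. There Tap1 was higher in KO, while Psmb9, with few reads, overlapped between the genotypes. At day 2 the mean FPKM of both was higher in KO, and both fell from day 0 to day 2 in each genotype. Capitals mark CCAAT and TGACG as read on the strand of Tap1.
Between the Psmb9 and Tap1 starts, chr17:34187331-34187555, plus strand: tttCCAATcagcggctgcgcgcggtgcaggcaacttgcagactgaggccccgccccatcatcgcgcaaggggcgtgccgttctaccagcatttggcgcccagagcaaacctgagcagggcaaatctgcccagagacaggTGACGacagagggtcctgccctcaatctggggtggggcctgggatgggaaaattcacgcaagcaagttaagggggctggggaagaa
Psmb9, Tap1, Psmb8 and Tap2 lie side by side at chr17:34182030-34216321, 34292 bases that hold these 4 RefSeq genes and no other. With Tapbp, H2-K1 and H2-D1 the members on chromosome 17 number 7. B2m is on chromosome 2, and Nlrc5 and Psmb10 are on chromosome 8. The windows of Psmb8 and Psmb10 held none of the motifs searched, and that of Tapbp held CCAAT only.

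Levels are the deposited FPKM, the authors' fragments per kilobase of a gene scaled to depth, as mean ± SD of n = 3 libraries. Changes and tests are differences of log2(FPKM + 1) with their standard error (SE) from limma, with p-values adjusted over the 12961 genes that averaged at least 1 FPKM. A change passed at an adjusted p below 0.05. The scale shrinks the change of genes near 1 FPKM, so ratios of mean FPKM are given first. Psmb8 and Psmb9 averaged under 1 FPKM and were tested only in a fit with no filter. Nlrc5 entered the test through its level in the KO groups, since it stayed under 1 FPKM in every WT library.

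B2m (ENSMUSG00000060802, chr2:122147687-122153082), which encodes the light chain shared by all class I molecules, was the most abundant member. Its libraries read 488, 496 and 486 FPKM in WT day 0 and 2058, 2021 and 2068 in KO day 0. The day 2 libraries read 123, 120 and 119 in WT and 684, 694 and 747 in KO. The groups were far apart at both days, with no overlap. B2m was 4.18-fold higher in KO than in WT at day 0 (log2 change 2.06, SE 0.03, adjusted p = 6.09e-14) and 5.86-fold higher at day 2 (2.54, SE 0.03, adjusted p = 7.35e-15). From day 0 to day 2 it fell to 120.8 ± 2.31 FPKM in WT and to 708 ± 33.7 in KO, so KO cells at day 2 were still above WT cells at day 0.

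H2-K1 (ENSMUSG00000061232, chr17:33996012-34000619), a classical heavy chain gene, had the larger fold difference between the genotypes of the 2 heavy chain genes. It read 30.7, 29.5 and 29.7 FPKM in WT day 0 and 184, 184 and 176 in KO day 0. WT libraries at day 2 read 9.38, 8.94 and 8.38, and KO libraries 50.2, 54.7 and 59.8. All KO libraries were above all WT libraries, also across days. The ratio was 6.04 at day 0 (log2 change 2.56, SE 0.06, adjusted p = 1.3e-12) and 6.17 at day 2 (2.50, SE 0.06, adjusted p = 1.26e-12).

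H2-D1 (ENSMUSG00000073411, chr17:35263094-35267497), the other classical heavy chain gene, was the more abundant of the pair. It read 241, 227 and 231 FPKM in WT day 0, and 845, 846 and 819 in KO day 0. The later libraries read 113, 114 and 115 in WT and 547, 528 and 533 in KO. The replicates lay close together and the groups did not overlap. H2-D1 was 3.59-fold higher in KO at day 0 (log2 change 1.84, SE 0.03, adjusted p = 4.07e-14) and 4.70-fold higher at day 2 (2.22, SE 0.03, adjusted p = 5.85e-15). H2-K1 and H2-D1 are near-identical copies in part, and class I alleles differ between mouse strains, so reads may have been split between them or lost. The authors' handling of such reads is not given in the sources used here, and its effect was not tested.

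The balance of the 2 heavy chain genes shifted with both day and genotype, per length of gene. The ratio of H2-D1 to H2-K1 FPKM was 7.76 ± 0.0806 in WT day 0, 12.9 ± 0.886 in WT day 2, 4.62 ± 0.0324 in KO day 0 and 9.82 ± 0.993 in KO day 2. It was lower in KO than in WT at each day and higher at day 2 than at day 0 in each genotype, with no overlap of libraries in any of these 4 pairs. H2-D1 stood at 47.5% ± 1.87 of the B2m level in WT day 0 and 94.4% ± 2.87 in WT day 2. In the KO groups it stood at 40.8% ± 1.15 and 75.8% ± 4.28. The 2 genes that encode the chains of H2-D molecules were thus nearest in level in WT day 2.

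**Figure D1:**
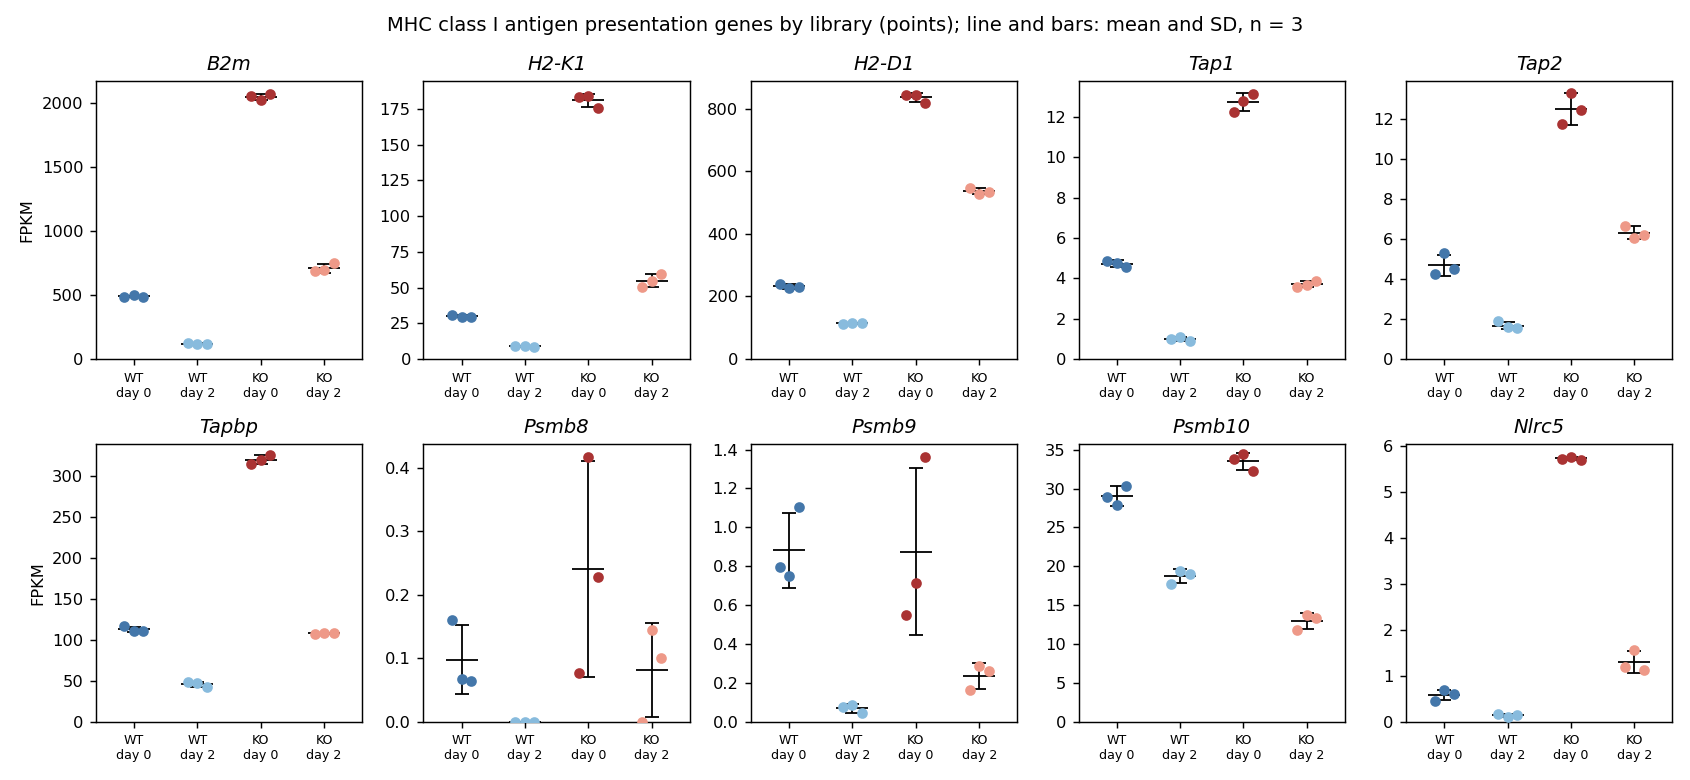
FPKM of the 10 class I presentation genes in each of the 12 RNA-seq libraries, by labelled genotype and day, with the mean and SD of n = 3 as lines and bars and a separate linear axis for each gene. B2m, H2-K1, H2-D1, Tap1, Tap2, Tapbp and Nlrc5 were highest in the libraries labelled KO at day 0 and lowest in WT at day 2, while Psmb10 was lowest in KO day 2 and Psmb8 and Psmb9 were near 0.

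The peptide transporter genes were also higher in the KO-labelled libraries. Tap1 (ENSMUSG00000037321, chr17:34187556-34197225) encodes one chain of the transporter. It read 4.86, 4.78 and 4.56 FPKM in WT day 0 and 12.3, 12.8 and 13.2 in KO day 0. After 2 days it read 0.989, 1.10 and 0.906 in WT and 3.57, 3.69 and 3.88 in KO. KO day 2 was below WT day 0, unlike the order seen for B2m, H2-K1 and H2-D1. The ratio of KO to WT was 2.69 at day 0 (log2 change 1.26, SE 0.06, adjusted p = 6.8e-10) and 3.72 at day 2 (1.24, SE 0.06, adjusted p = 7.1e-10), where limma's voom method on the recovered reads, which adds no whole FPKM, gave 1.89.

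Tap2 (ENSMUSG00000024339, chr17:34204479-34216321) encodes the partner chain. It read 4.26, 5.28 and 4.51 FPKM in WT day 0 and 11.7, 13.3 and 12.4 in KO day 0. The day 2 values were 1.89, 1.58 and 1.54 in WT and 6.66, 6.03 and 6.22 in KO. The genotypes did not overlap at either day. The ratio was 2.67 at day 0 (log2 change 1.25, SE 0.08, adjusted p = 1.99e-08) and 3.77 at day 2 (1.45, SE 0.08, adjusted p = 4.47e-09). At day 0 Tap1 and Tap2 overlapped in level in both genotypes, at 4.74 ± 0.157 and 4.68 ± 0.535 FPKM in WT and 12.7 ± 0.444 and 12.5 ± 0.785 in KO. At day 2 Tap2 was above Tap1 in every library of both genotypes.

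Tapbp (ENSMUSG00000024308, chr17:33919478-33929290), the gene of tapasin, which bridges the transporter and the empty heavy chain, was far more abundant than the transporter genes. It read 117, 110 and 111 FPKM in WT day 0 and 315, 320 and 325 in KO day 0. The values at day 2 were 48.0, 47.1 and 42.3 in WT and 108, 108 and 108 in KO. KO day 2 came close to WT day 0, just below its lowest library. The ratio was 2.84 at day 0 (log2 change 1.5, SE 0.04, adjusted p = 9.9e-12) and 2.36 at day 2 (1.22, SE 0.04, adjusted p = 5.15e-11).

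Nlrc5 (ENSMUSG00000074151, chr8:94434335-94527272), the class I coactivator gene, had the highest ratio of the 8 members tested at both days, from a low level. It read 0.452, 0.683 and 0.609 FPKM in WT day 0 and 5.73, 5.77 and 5.71 in KO day 0. It read 0.171, 0.106 and 0.140 in WT day 2 and 1.19, 1.57 and 1.13 in KO day 2. In reads this is 27, 39 and 36 against 288, 345 and 336 at day 0, and 11, 6 and 8 against 74, 83 and 65 at day 2, so the WT day 2 level rests on 25 reads in all. Nlrc5 was 9.87-fold higher in KO at day 0 (log2 change 2.09, SE 0.09, adjusted p = 4.76e-10) and 9.32-fold higher at day 2 (1.01, SE 0.09, adjusted p = 4.56e-07). With voom on the recovered reads the changes were 3.31 and 3.13.

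Of the immunoproteasome genes, Psmb10 was slightly higher in KO at day 0 and lower at day 2, and Psmb8 and Psmb9 averaged under the 1 FPKM filter. Psmb10 (ENSMUSG00000031897, chr8:105935728-105938392) encodes the subunit that takes the place of Psmb7. It read 28.9, 27.9 and 30.3 FPKM in WT day 0 and 33.9, 34.5 and 32.3 in KO day 0. By day 2 it read 17.7, 19.4 and 19.1 in WT and 11.8, 13.7 and 13.4 in KO. KO was 1.16-fold the WT level at day 0 (log2 change 0.20, SE 0.06, adjusted p = 0.0051) and below it at day 2, where WT was 1.44-fold the KO level (log2 change -0.50, SE 0.06, adjusted p = 4.21e-06). Psmb10 was the 1 tested member with opposite signs at the 2 days.

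Psmb9 (ENSMUSG00000096727, chr17:34182030-34187330), whose product replaces that of Psmb6, was close to the limit of detection. It read 0.798, 0.747 and 1.10 FPKM in WT day 0 (19, 17 and 26 reads) and 0.549, 0.713 and 1.36 in KO day 0 (11, 17 and 32 reads). The genotypes overlapped at day 0. WT day 2 libraries read 0.0781, 0.0883 and 0.0439 (2, 2 and 1 reads) and KO day 2 libraries 0.161, 0.284 and 0.261 (4, 6 and 6 reads), with no overlap. The ratio of KO to WT in mean FPKM was 0.992 at day 0 and 3.36 at day 2, the latter from 16 reads against 5. With no filter on low values limma gave a log2 change of FPKM + 1 of -0.02 at day 0 (adjusted p = 0.977) and 0.21 at day 2 (adjusted p = 0.292), so the day 2 difference did not pass on that scale. Its day 2 levels were lower than its day 0 levels in both genotypes (log2 change in WT -0.81, adjusted p = 0.00057; log2 change in KO -0.58, adjusted p = 0.00646).

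Psmb8 (ENSMUSG00000024338, chr17:34198195-34201454), whose product replaces that of Psmb5, had between 0 and 13 reads in each library. It had 5, 2 and 2 reads in WT day 0 and 2, 13 and 7 in KO day 0. It had no read in the WT day 2 libraries and 0, 4 and 3 in KO day 2. A count of 0 allows up to 3 reads, which is 0.101 FPKM in WT day 2 replicate 2, a limit that covers counting error only. Psmb8 passed in none of the comparisons with no filter. So 2 of the 3 immunoproteasome genes were almost silent in libraries where B2m exceeded 119 FPKM.

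The constitutive subunit genes that the immunoproteasome genes displace were abundant and lower in KO. Psmb5 was at 51.0 ± 4.33 FPKM in WT day 0 and 30.2 ± 1.49 in KO day 0 (log2 change -0.74), Psmb6 at 164 ± 2.15 and 111 ± 0.425 (-0.56), and Psmb7 at 82.4 ± 2.52 and 46.1 ± 1.40 (-0.82). The 3 were lower at day 2 as well, by -1.08, -0.79 and -1.11. Because FPKM is per length, a subunit can be set beside its counterpart within a library. Psmb10 made up 26.1% ± 0.631 of the sum of Psmb10 and Psmb7 in WT day 0 and 42.1% ± 1.13 in KO day 0. By day 2 the share was 15.0% ± 0.986 in WT and 21.1% ± 0.637 in KO.

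The share of Psmb10 was thus higher in KO at both days, by 16.1 and 6.06 percentage points, although its own level at day 2 was lower in KO. The groups did not overlap, and the 2-sided exact permutation p was 0.1 for each of the 4 pairs of groups, the smallest that 3 libraries against 3 can give. Psmb9 never made up more than 1.21% of the sum with Psmb6, nor Psmb8 more than 1.32% of the sum with Psmb5, in any library. For these 2 the genotypes overlapped at day 0 (exact permutation p = 0.4 for Psmb9 and 0.2 for Psmb8). At day 2 the share of Psmb9 was 0.0330% ± 0.0106 in WT and 0.193% ± 0.0576 in KO, with no overlap (exact permutation p = 0.1), and that of Psmb8 overlapped (exact permutation p = 0.4).

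**Figure D2:**
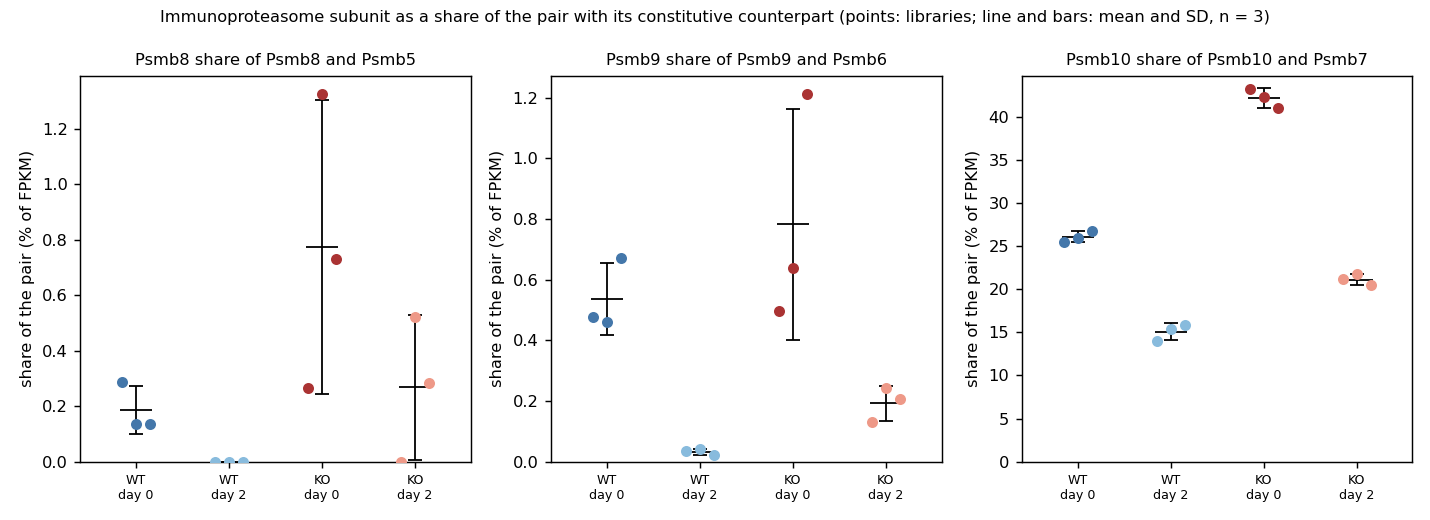
Share of each immunoproteasome gene in the summed FPKM of itself and its constitutive counterpart, in percent, for each library (points) with the mean and SD of n = 3 by labelled genotype and day. The Psmb10 share was 26.1% in WT day 0 and 42.1% in KO day 0 and fell at day 2 in both genotypes, while the shares of Psmb8 and Psmb9 were at most 1.32% and 1.21% in any library.

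Counted together, the 8 members tested were all higher in KO at day 0, where 38.3% of all genes tested passed as higher, 44.2% as lower and 82.4% in either direction. At day 2, 7 were higher and 1, Psmb10, was lower, against 40.8% of all genes higher, 40.6% lower and 81.4% in either direction. The genotypes did not overlap in any of the 8 at day 0 or at day 2. Of all genes, 84% and 82.2% did not overlap either, so passing the test sets these genes apart from few others. The median log2 change of the 8 was 1.67 at day 0 and 1.35 at day 2, beside medians over all genes of -0.06 and 0.00. The members were chosen by name with earlier results of these data known, and their number past the filter includes Nlrc5, which had to differ to enter.

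During the 2 days in the cocktail the message of every tested member fell in both genotypes. In WT, 8 of 8 fell, where 46.5% of all genes tested were lower at day 2, 34.2% higher and 80.7% either, with a median of -1.18 beside -0.11 over all genes. In KO, 8 of 8 fell, where 38.8% of all genes were lower, 33.9% higher and 72.7% either, with a median of -1.54 beside -0.03. Day 0 and day 2 libraries did not overlap in any of the 8, as for 82.2% of all genes in WT and 74.8% in KO. The 2 time comparisons share no library, but each shares a group with the comparisons of genotypes.

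B2m fell 4.06-fold in WT (log2 change -2.01, SE 0.03, adjusted p = 3.38e-14), and 2.89-fold in KO (-1.53, SE 0.03, adjusted p = 9.38e-13). H2-K1 fell 3.37-fold in WT (-1.65) and 3.30-fold in KO (-1.71). H2-D1 fell 2.04-fold in WT (-1.02) and 1.56-fold in KO (-0.64), the mildest fall among the members tested in KO. The heavy and light chain genes therefore lost message to different extents.

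Tap1 fell 4.75-fold in WT (log2 change -1.52) and 3.43-fold in KO (-1.54). Tap2 fell 2.80-fold in WT (-1.09) and 1.98-fold in KO (-0.88), and Tapbp 2.46-fold in WT (-1.28) and 2.96-fold in KO (-1.56). Nlrc5 fell 4.19-fold in WT and 4.43-fold in KO. On the log2(FPKM + 1) scale this was -0.47 in WT and -1.56 in KO, and with voom on the recovered reads -1.99 and -2.17. Psmb10 fell 1.55-fold in WT (-0.61) and 2.58-fold in KO (-1.31).

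**Figure D3:**
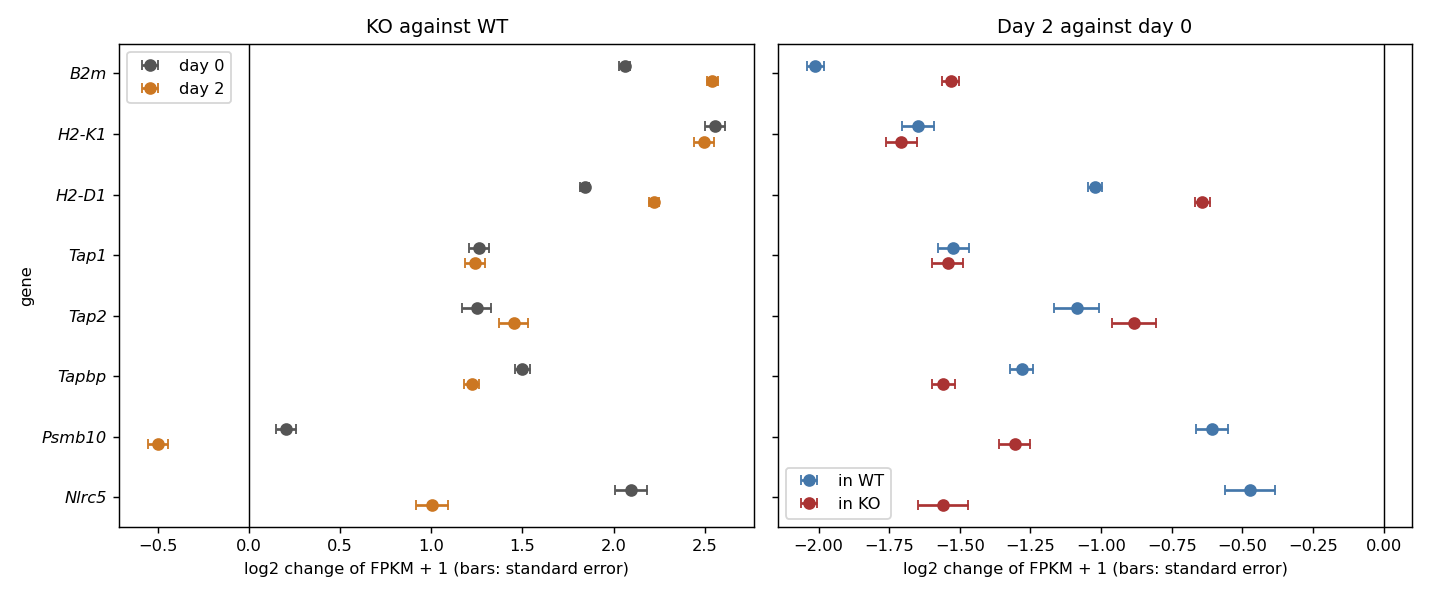
Differences of log2(FPKM + 1) from limma for the 8 members tested, with bars of 1 standard error, for the libraries labelled KO against WT at day 0 and day 2 (left) and day 2 against day 0 in each genotype (right). On the left Psmb10 is the gene whose sign differs between the days, and on the right all 8 are below 0 in both genotypes.

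Whether the genotypes differed in this fall was tested by the interaction of genotype and day, which 73.8% of all genes passed. Of the 8 members 2 passed as positive, against 40.8% of all genes, and 3 as negative, against 33%. B2m (0.48, SE 0.04, adjusted p = 8.57e-07) and H2-D1 (0.38, SE 0.04, adjusted p = 1.54e-06) fell less in KO. Tapbp (-0.28, SE 0.06, adjusted p = 0.00105) and Psmb10 (-0.70, SE 0.08, adjusted p = 6.26e-06) fell more in KO. H2-K1 did not pass (-0.06, SE 0.08, adjusted p = 0.507).

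For the low genes the interaction depended on the scale. Nlrc5 passed at -1.09 (SE 0.13, adjusted p = 7.9e-06) on log2(FPKM + 1), but was at -0.18 (adjusted p = 0.662) with voom on the recovered reads and at -0.57 (adjusted p = 0.0742) with a pseudocount of 0.1. Tap1 did not pass at -0.02 (adjusted p = 0.822) and Tap2 did not at 0.20 (adjusted p = 0.12). Tap1 was called at 0.46 (adjusted p = 0.00733) and Tap2 at 0.48 (adjusted p = 0.02) with voom. The ratios of mean FPKM of KO to WT were 9.87 and 9.32 for Nlrc5, 2.69 and 3.72 for Tap1, and 2.67 and 3.77 for Tap2, at day 0 and day 2.

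The order of the members by FPKM was nearly the same in all groups: B2m, H2-D1 and Tapbp led, and Psmb8 was last. In WT day 0, H2-K1 at 30.0 ± 0.663 and Psmb10 at 29.0 ± 1.24 overlapped, as did Tap1 and Tap2. In WT day 2 Psmb10 at 18.7 ± 0.898 was above H2-K1 at 8.90 ± 0.502. In the KO groups H2-K1 was above Psmb10, at 181 ± 4.6 against 33.6 ± 1.10 at day 0 and 54.9 ± 4.77 against 13 ± 1.01 at day 2. Nlrc5 was above Psmb9 in WT day 2 and in both KO groups and below it in WT day 0. In KO day 0 Tap1 and Tap2 overlapped again. All other neighbours in the 4 orders did not overlap.

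Other class I heavy chain genes were counted from a list of 20, of which 19 were in the table and 7 averaged at least 1 FPKM. At day 0, 6 of the 7 were higher in KO and none lower, and at day 2, 5 were higher and 1, H2-M3, was lower. H2-T23 is among the higher genes at both days and averaged under 1 FPKM in both WT groups, so it entered the test through its KO level. For this and the other lists the background is that of all genes tested, 38.3% higher and 44.2% lower at day 0, and 40.8% and 40.6% at day 2. Mr1, whose product presents vitamin B metabolites, went from 3.63 ± 0.340 FPKM in WT to 13.7 ± 0.140 in KO at day 0 and from 0.347 ± 0.0880 to 4.54 ± 0.179 at day 2. H2-T10, a nonclassical gene, went from 6.66 ± 0.211 to 17.2 ± 0.934 at day 0 and from 1.12 ± 0.170 to 4.46 ± 0.235 at day 2, and its reads may be shared with its near-identical neighbour H2-T22. H2-T23, which encodes the Qa-1 molecule, went from 0.922 ± 0.167 to 3.65 ± 0.308 at day 0.

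Fcgrt encodes the neonatal Fc receptor, which pairs with beta-2 microglobulin but carries no peptide. It was at 45.4 ± 2.12 FPKM in WT day 0 and 140 ± 3.13 in KO day 0 (log2 change 1.61, adjusted p = 4.3e-12). The day 2 levels were 145 ± 4.38 in WT against 139 ± 6.04 in KO (-0.06, adjusted p = 0.18), and in WT it was higher at day 2 where B2m was lower. The 12 listed genes under 1 FPKM included the H2-Q genes, and H2-M2 was listed at 0 in every library.

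Genes of peptide loading and trimming moved in mixed directions. Of 8 listed, 3 were higher and 4 lower in KO at day 0, and 5 higher and 3 lower at day 2. Calr, the calreticulin gene, was at 2041 ± 13.8 FPKM in WT and 1112 ± 9.64 in KO at day 0 and at 1487 ± 38.6 and 2029 ± 38.3 at day 2. Pdia3, the oxidoreductase of the loading complex, was at 787 ± 8.86 and 751 ± 3.16 at day 0 and at 530 ± 6.68 and 878 ± 1.06 at day 2. Erap1, the aminopeptidase that trims peptides for class I, was higher in KO at both days, at 11.2 ± 0.805 and 16.8 ± 0.849, then 3.86 ± 0.328 and 6.76 ± 0.168. Tapbpl, also on the list, did not pass at day 0 (log2 change -0.16, adjusted p = 0.0541) and was lower in KO at day 2 (-0.30, adjusted p = 0.0015).

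The rest of the proteasome was mostly lower in KO. Of the other 11 genes of the 20S core, 10 were lower and 1, Psma1, was higher at day 0, and 11 were lower at day 2. Psma7 was at 315 ± 4.50 FPKM in WT day 0 and 102 ± 2.67 in KO day 0. Of 5 genes of proteasome activators and assembly, 1 was higher and 3 lower at day 0, and 4 were lower at day 2. Psme1, an activator subunit gene that interferon induces, was at 54.0 ± 2.63 and 63.2 ± 0.786 at day 0 and at 37.3 ± 0.821 and 37.2 ± 0.309 at day 2. Psme2, also on that list, did not pass at day 0 (log2 change 0.08, adjusted p = 0.477) and was lower in KO at day 2 (-1.13, adjusted p = 5.86e-07). Pomp, the assembly factor gene, was at 108 ± 1.07 and 59.3 ± 1.22 at day 0. The chain, transporter and tapasin genes were thus higher in KO and most protease genes lower.

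Genes of factors that bind class I promoters did not move one way. Of 10 listed, 3 were higher and 5 lower in KO at day 0, and 5 higher and 5 lower at day 2. The NF-Y genes Nfya, Nfyb and Nfyc, whose products bind CCAAT, were lower at both days, with Nfya at 76.2 ± 2.47 FPKM in WT day 0 and 35.0 ± 1.23 in KO day 0. Rfxank, a gene of the RFX complex that Nlrc5 joins, was at 3.03 ± 0.287 and 3.94 ± 0.286 at day 0 and at 4.01 ± 0.549 and 13.1 ± 0.305 at day 2.

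Interferon signalling genes were counted because interferons induce the pathway. Of 15 listed, 9 were higher and 4 lower in KO at day 0, and 10 higher and 3 lower at day 2, with medians of 0.28 and 0.46. At day 0 Irf9, a gene of the type I interferon response factor, rose from 13.6 ± 0.870 FPKM in WT to 46.8 ± 0.320 in KO, and Usp18, a feedback inhibitor of the type I receptor, from 13.3 ± 0.184 to 49.0 ± 0.621. Usp18 at day 2 read 3.08 ± 0.323 in WT and 2.99 ± 0.304 in KO and did not pass. B2m, H2-K1 and H2-D1 were 4.70-fold to 6.17-fold higher in KO at that day. Of the inducing ligands Ifnb1 and Ifng were listed at 0 in every library, and Tnf and Lta stayed under 1 FPKM.

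Class II genes were counted because antigen-presenting cells would carry them. Of 7 listed, 3 averaged at least 1 FPKM, and all 3 were higher in KO at both days, where 38.3% and 40.8% of all genes tested were higher. Cd74, the invariant chain gene, was at 1.31 ± 0.225 FPKM in WT day 0, 6.08 ± 0.131 in KO day 0, 0.145 ± 0.0686 in WT day 2 and 1.76 ± 0.123 in KO day 2. It averaged under 1 FPKM over the WT libraries, so it entered the test through its KO level. H2-DMa was at 5.21 ± 0.985 and 12.4 ± 1.27 at day 0 and at 5.82 ± 0.422 and 13.8 ± 0.705 at day 2. The class II chain genes H2-Aa, H2-Ab1 and H2-Eb1 and the class II regulator gene Ciita stayed under 1 FPKM.

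**Figure D4:**
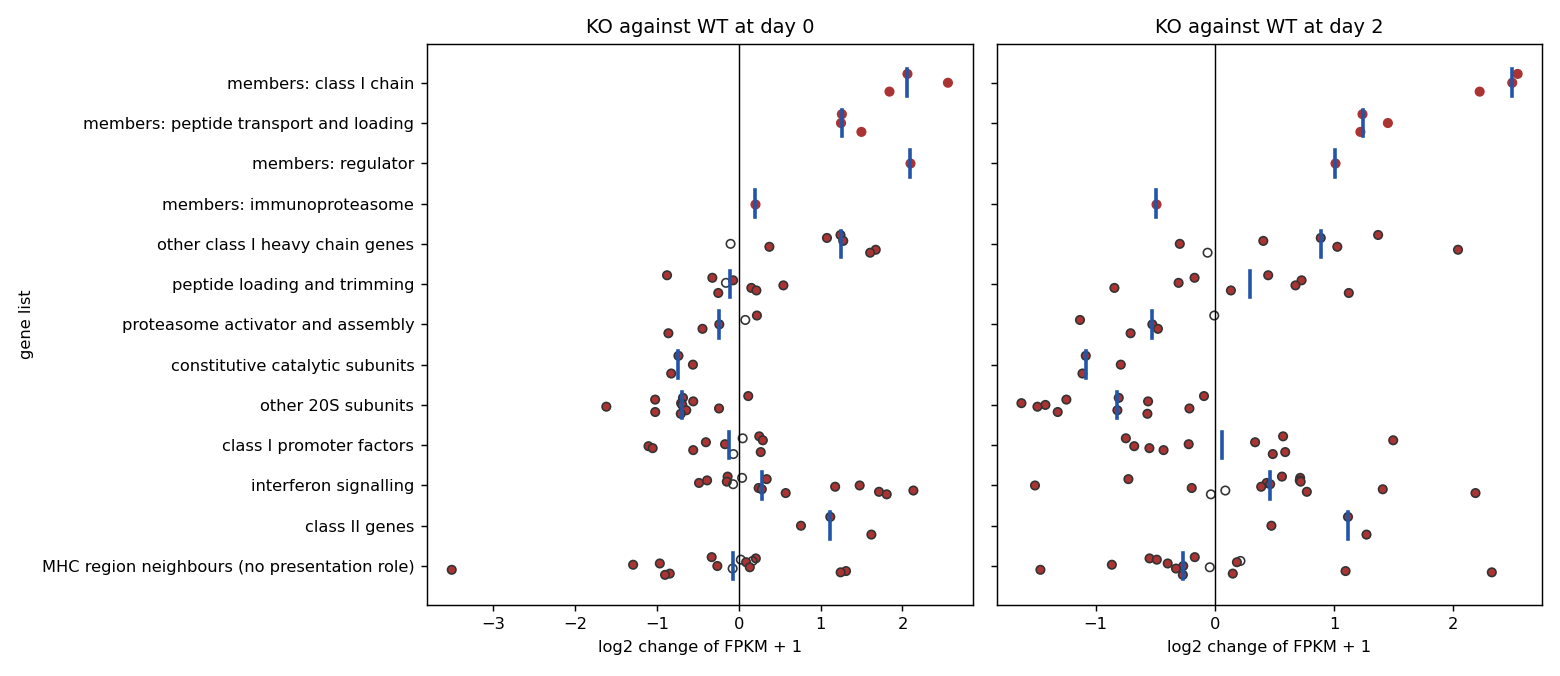
Difference of log2(FPKM + 1) between libraries labelled KO and WT at day 0 (left) and day 2 (right) for each tested gene of each list, with filled points for genes that passed, open points for those that did not, and a blue bar at the median of the list. The class I chain genes lie between 1.84 and 2.56 at day 0, while the constitutive catalytic subunits and all other 20S genes but Psma1 lie below 0.

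Genes near the members on chromosome 17 were counted to show how the region as a whole moved. Of 15 neighbours without a role in antigen presentation, 5 were higher and 7 lower in KO at day 0, and 4 higher and 9 lower at day 2, with medians of -0.07 and -0.26. Phf1, a Polycomb partner gene, was at 13.4 ± 1.07 FPKM in WT day 0 and 34.7 ± 0.681 in KO day 0, while Kifc1, a mitotic kinesin gene, was at 52.1 ± 0.862 and 3.70 ± 0.543. The median change of the 581 tested genes of chromosome 17 was -0.05 from that of all genes at day 0. The 675 tested genes of chromosome 8, which holds Nlrc5 and Psmb10, were +0.42 from it at day 0 and +0.40 at day 2. Whether this shift bears on the levels of Nlrc5 and Psmb10 was not tested.

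Cell type markers were read beside these changes. In bulk RNA, fewer cells of a type and less RNA per cell cannot be told apart. The summed FPKM of 7 fibroblast and preadipocyte markers was 9534 to 9822 in WT day 0, 1056 to 1080 in WT day 2, 20050 to 20680 in KO day 0 and 6823 to 6984 in KO day 2. Of the 7, 5 were higher in KO at day 0, 1, Vim, was lower (log2 change -0.59) and 1, Thy1, did not pass (0.05), while all 7 were higher in KO at day 2. Over time all 7 fell in WT, and in KO 6 fell and Vim rose (0.43). The summed FPKM of 6 adipocyte markers was 65.0 to 70.0, 6678 to 6859, 192.5 to 202.5 and 321 to 334 in the same order. Of these 6 markers 1, Lpl, was higher in KO at day 0 (log2 change 1.75), 1, Pparg, was lower (-1.55) and the other 4 did not pass, while all 6 were lower in KO at day 2. The part of the markers in the class I levels was not tested. As the 3T3-L1 label asks, Pdgfra, Col1a1 and Dlk1 were present in every group, lowest in WT day 2 at 37.9 ± 1.65, 161 ± 2.22 and 68.7 ± 1.22.

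Leukocyte markers were low. The summed FPKM of 8 markers was 3.50 to 4.79 in WT day 0, 5.82 to 7.35 in WT day 2, 17.2 to 18.2 in KO day 0 and 8.51 to 9.71 in KO day 2, most of it Lyz2 in KO day 0 (14.75 ± 0.156). Cd68, the other of the 2 markers tested, did not pass in KO against WT at either day (log2 change -0.16 and 0.02). From day 0 to day 2 Cd68 rose in both genotypes (1.21 in WT and 1.39 in KO), where Lyz2 fell (-1.24 and -2.58). Ptprc, which marks all leukocytes, was at or below 0.199 FPKM in every library, and Adgre1 and Itgam were at or below 0.0390. Lymphocyte markers summed to at most 0.681 and endothelial markers to at most 0.294.

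The 8 tested members were compared with one another by their profile over the 12 libraries, which fall into 4 groups, so the correlations describe the group pattern and carry no test. Pearson's r with the mean of the members was 0.998 for Tapbp, 0.990 for Tap1, 0.984 for B2m, 0.983 for H2-K1, 0.980 for Tap2, 0.958 for Nlrc5, 0.920 for H2-D1 and 0.555 for Psmb10. Each member is itself part of that mean, which raises its r, while genes outside the members are not. The named genes outside the members with the most similar profile were Adamts7 and Ssc5d (r = 0.998 each), Phf1 and Scarf2 (0.997 each) and Fat4 (0.996). Adamts7, a metalloprotease gene, was at 4.49 ± 0.478 FPKM in WT day 0, 0.698 ± 0.0618 in WT day 2, 20.6 ± 0.689 in KO day 0 and 4.6 ± 0.0807 in KO day 2.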

How the data were processed

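The authors deposited an FPKM table (fragments per kilobase of a gene, scaled to depth) of 52505 genes in 12 RNA-seq libraries. Its columns were matched to samples by their names. The submitters' processing notes list, without roles, the build mm10 and BWA 0.7.12, TopHat2 2.0.12, MACS2 2.1.0, HTSeq 0.6.1, Bowtie2 2.2.3, FastQC and CASAVA. Not given in the sources used here are annotation and strand setting. The MeRIP samples were not analysed here. Identifiers were matched to symbols for 51633 genes.

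Values were whole multiples of a step per gene in all 30916 genes above 0 (tolerance 0.001 of a read), which gave read numbers. Where all reads of a gene have a common divisor, the recovered numbers are too low by it. Values were fitted as log2(FPKM + 1) with limma 3.58.1 (R 4.3.3) with a variance trend and 4 group means, on the 12961 genes averaging 1 FPKM or more, 2-sided, with Benjamini-Hochberg adjustment and a threshold of 0.05 in each of 5 comparisons. Shares were compared by exact permutation tests. The fit was tested on simulated data. Alternatives were a pseudocount of 0.1, a minimum mean of 5 FPKM or none, quantile, TPM and median-of-ratios scaling, a fit with no trend or on just the 2 groups at hand, a replicate block, voom on recovered reads, each library left out and a 2-fold minimum. Members, lists and the motif gap were chosen with earlier results of these data known. All members are named, and of each list up to 4 genes with the smallest adjusted p at day 0 and 2 at day 2. Others were named after their values were seen: Psme1, Psme2, Tapbpl, H2-M3, H2-T22, Rfxank, Psma1, the marker genes and the low class II genes. Coordinates and promoter sequences are RefSeq's on GRCm38.p6. Of the genes this rule names, 1 is not reported here.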

Additional observations from a re-analysis of the deposited data

Results flagged for a closer look

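In 5 members the change from day 0 to day 2 differed between the genotypes by the interaction term of limma. It was 0.48 for B2m and 0.38 for H2-D1, whose fall was smaller in the libraries labelled KO. In each genotype all 3 day 2 libraries were below all 3 day 0 libraries for these 5 genes. It was -0.28 for Tapbp and -0.70 for Psmb10, whose fall was larger there. Nlrc5 was at -1.09 on log2(FPKM + 1), a value that rests on the scale, as its FPKM fell 4.19-fold in WT and 4.43-fold in KO. Of all genes tested 73.8% passed this test.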

How the results depend on the processing

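For the 8 members tested, each of the 4 comparisons other than the interaction kept its direction in every alternative that tested the gene, and its call in every one but the 2-fold minimum, which 7 members passed in KO against WT at each day and 6 over time in each genotype. Leaving out 1 library moved these values by at most 0.09 (Nlrc5, KO against WT at day 2). Reversals were limited to interactions near 0. H2-K1 was at 0.02 with a pseudocount of 0.1 and with voom on recovered reads, and at -0.12 to 0.00 with 1 library left out. Tap1 was at 0.39 with a pseudocount of 0.1, 0.46 with voom and -0.05 to 0.01 with 1 library left out. Tap2 was at -0.02 with quantile normalization. With quantile normalization the median of all genes in WT over time moved from -0.11 to 0.01, and H2-K1 (-0.32) and Tap1 (-0.29) passed the interaction test. With a 2-fold minimum 1 member passed that test. As shares of recovered reads rather than FPKM, Psmb10 stood at 12.3% and 6.59% in WT day 0 and day 2 and 22.5% and 9.64% in KO, Psmb9 at 0.763% and 0.0470% in WT and 0.275% in KO day 2, and Psmb8 at 0.309% in WT day 0, since reads are not per length. No label says whether same-numbered libraries share a culture or batch. Between libraries with the same number, the correlation of deviations lay between -0.0545 and 0.0869. The closest match had the same number for 6 libraries out of 12. These values cannot show whether anything beyond the number was shared. With the replicate block, 5 members were called in the interaction and 8 in each other comparison. Depth limits Psmb8, with at most 13 reads in a library, and Psmb9, with at most 32.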
